A study of Mus musculus with 6 samples.

Results

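Antioxidant enzymes keep superoxide and peroxides low in cells that handle much iron, heme and oxygen. Followed here are 10 genes of this defence, the peroxiredoxins Prdx1, Prdx2 and Prdx3, catalase (Cat), the glutathione peroxidases Gpx1 and Gpx4, the superoxide dismutase Sod1, the glutathione synthesis genes Gclc and Gclm, and Nfe2l2, out of 23896 genes with a symbol in the deposited counts. They were chosen by name, and each is represented by its transcript of highest mean count. The files hold 1 transcript for 9 of them and 3 for Gpx4. All 10 passed the filter on low counts, as did 12381 genes in all.

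The cells were MEL cells, a mouse erythroleukemia line, treated with 2% DMSO, which sets off erythroid differentiation, and collected after 0, 2 and 4 days. Each day had 2 libraries of poly(A) RNA, which the submitters call biological replicates, and how the 2 cultures of a day were kept apart is not given in the sources used here, so that the p-values measure the spread between these libraries. MEL is 1 transformed line, and without an untreated culture at day 2 or day 4 among the 6 libraries, days of DMSO and days in culture cannot be told apart.

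Superoxide dismutase turns superoxide into hydrogen peroxide, which catalase, peroxiredoxins and glutathione peroxidases then reduce. Peroxiredoxins draw their electrons from thioredoxin and glutathione peroxidases from glutathione, and both are in the end recharged by NADPH. Nfe2l2 encodes NRF2, a transcription factor held down by KEAP1 in resting cells, which binds antioxidant response elements near many of these genes. In red cells peroxiredoxin 2 is among the most abundant proteins, and catalase and glutathione peroxidase 1 share the removal of peroxide with it.

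Libraries held 35294930 to 53899476 counts on transcripts. Levels are given as CPM, counts relative to library sizes scaled by edgeR's TMM factors (0.921 to 1.07), and between genes as RPKM, which is CPM per kilobase of transcript. The labelled cell type was checked on fixed markers. Of 9 erythroid markers, 8 were found and their summed level was 777 to 867 CPM before DMSO, 1151 to 1233 CPM after 2 days and 2729 to 3002 CPM after 4 days, with 7 called higher and 1 lower at day 4 than at day 0. All 8 myeloid markers together reached at most 2.04 CPM in any library, with S100a8 and S100a9 at 0, all 6 lymphoid markers at most 0.172 CPM, with Ms4a1, Cd8a and Ncr1 at 0, and all 5 fibroblast markers at most 3.24 CPM, with Col3a1 at 0. The 6 mast cell markers summed to 6.42 to 6.83 CPM at day 0 and 0.221 to 0.416 at day 4, with Tpsb2 at 0. The 6 megakaryocyte markers summed to 270 to 273 CPM at day 0 and 562 to 634 at day 4, most of it Itga2b (531 and 606 CPM at day 4). Of these 6, 4 were called higher and 2 lower at day 4 than at day 0. Pf4 fell from 57.4 and 42.7 CPM at day 0 to 10.2 and 8.93 at day 4. The part of these marker shifts in the results was not tested. The day 0 replicates stood furthest apart, with 5.52% of tested genes over 1.5-fold different between them, against 0.331% at day 2 and 1.89% at day 4.

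Sequences are shown for a pair of features that some of the 10 genes share. The first is the selenocysteine codon. Gpx1 and Gpx4 carry selenocysteine at their active site, read from a TGA that otherwise ends translation, and the codon is in capitals below with 30 bases on each side. In Gpx1 it is codon 47, in exon 1 of 2 (chr9:108339421-108339483, plus strand, GRCm38), and in Gpx4 it is codon 129 of the transcript used here, in exon 3 of 7 (chr10:80054707-80054769, plus strand, GRCm38), and codon 73 of the shorter transcript.
Gpx1: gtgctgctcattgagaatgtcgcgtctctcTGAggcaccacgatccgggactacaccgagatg
Gpx4: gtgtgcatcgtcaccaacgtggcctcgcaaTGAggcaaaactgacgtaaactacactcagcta

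The second is the core of the antioxidant response element, TGACNNNGC, searched on both strands in RefSeq promoter windows of GRCm38.p6, which run from 250 bases before to 50 after a gene's start. Windows were found for 9 of the 10 genes (12 windows) and not for Gclc. The core lay in windows of 4 of the 9 genes, Nfe2l2, Gclm, Prdx1 and Sod1, and in 12.4% of all 32851 windows. The erythroid GATA motif AGATAA was in no window of the 9 genes and in 11.2% of all windows. The stretches are printed in the direction of the gene with the core in capitals, and its place is counted from the RefSeq start of the window. For Gclm that start is 122245557, inside the gene span given further on. It lay on the gene's own strand in Nfe2l2 and on the opposite strand in the other three. A match says only that the letters are there, and no match only that they are not in this window.
Nfe2l2 (chr2:75704875-75704913, minus strand, core at -240): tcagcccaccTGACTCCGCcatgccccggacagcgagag
Gclm (chr3:122245403-122245451, plus strand, core at -134): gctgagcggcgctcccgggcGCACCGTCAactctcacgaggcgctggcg
Prdx1 (chr4:116685446-116685494, plus strand, core at -133): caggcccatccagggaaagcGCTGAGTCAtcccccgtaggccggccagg
Sod1 (chr16:90220686-90220734, plus strand, core at -56): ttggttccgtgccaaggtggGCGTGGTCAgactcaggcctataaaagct

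Which antioxidant transcripts changed as the cells differentiated was asked for each step. A call is an edgeR adjusted p below 0.05, SE is the standard error, and 5 of the 10 were called by day 2. Prdx1, Cat, Gpx1 and Sod1 fell and Gclc rose. From day 2 to day 4, Prdx2, Cat and Nfe2l2 rose and none of the 10 fell, nor did any by DESeq2 or at an unadjusted p below 0.05, but Sod1 was called lower with no filter, with only the 2 days in the fit and without either day 0 replicate. Over the whole course Prdx1, Gpx1 and Sod1 were lower and Gclc and Nfe2l2 higher at day 4 than at day 0. Prdx3, Gpx4 and Gclm passed the threshold in no comparison.

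These counts have to be read against a transcriptome in which most genes moved. At day 2 against day 0, 62.5% of the 12381 tested genes were called (31% higher, 31.5% lower), beside 5 of 10 antioxidant genes (1 higher, 4 lower). From day 2 to day 4 the same threshold called 30.3% (14% higher, 16.2% lower), beside 3 of 10, all higher. For day 4 against day 0 it called 71.8% (35.5% higher, 36.4% lower), beside 5 of 10 (2 higher, 3 lower). In these 3 comparisons the share among the 10 was at or below that among all genes. Fewer of the 10 were called by day 2 without the second day 0 replicate, either day 2 replicate or the first day 4 replicate. Sod1 alone was lost by day 2 with only the 2 days in the fit or with counts summed over transcripts. From day 2 to day 4 fewer were called without either day 2 replicate or the second day 4 replicate. By day 4 fewer were called without the second day 4 replicate. Calls among all tested genes were fewer without each of these libraries too. By day 2 they were only slightly fewer without the second day 0 or the first day 4 replicate. Without the second day 0 replicate the first-step changes of Sod1 and Gclc were -0.09 and 0.21, against -0.51 and 0.34 with all libraries. Across the 10, the median change on the log2 scale was -0.13, 0.03 and 0.11 in the same order, and that of all tested genes was 0.01, 0.00 and -0.02. The libraries of both days did not overlap for 9, 6 and 8 of the 10, beside 80.5%, 74% and 84.8% of all tested genes. The last count takes in Cat, whose day 0 and day 4 libraries nearly touched.

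The balance of directions depended on the scaling. With total counts in place of TMM factors the median of all tested genes moved to 0.21, -0.09 and 0.10 on the log2 scale. All genes called at day 2 then split into 5001 higher and 2881 lower (3841 and 3902 with TMM), and the antioxidant genes into 3 higher (Prdx3, Gclc and Gclm) and 3 lower (Prdx1, Cat and Gpx1). From day 2 to day 4 all genes split into 1228 higher and 2532 lower (1739 and 2010 with TMM), and the same 3 antioxidant genes were called higher. At day 4 against day 0, total counts called 8 of the 10, adding Prdx2, Cat and Gclm to the higher ones, while all genes split into 4916 higher and 4006 lower (4393 and 4501 with TMM).

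**Figure D1:**
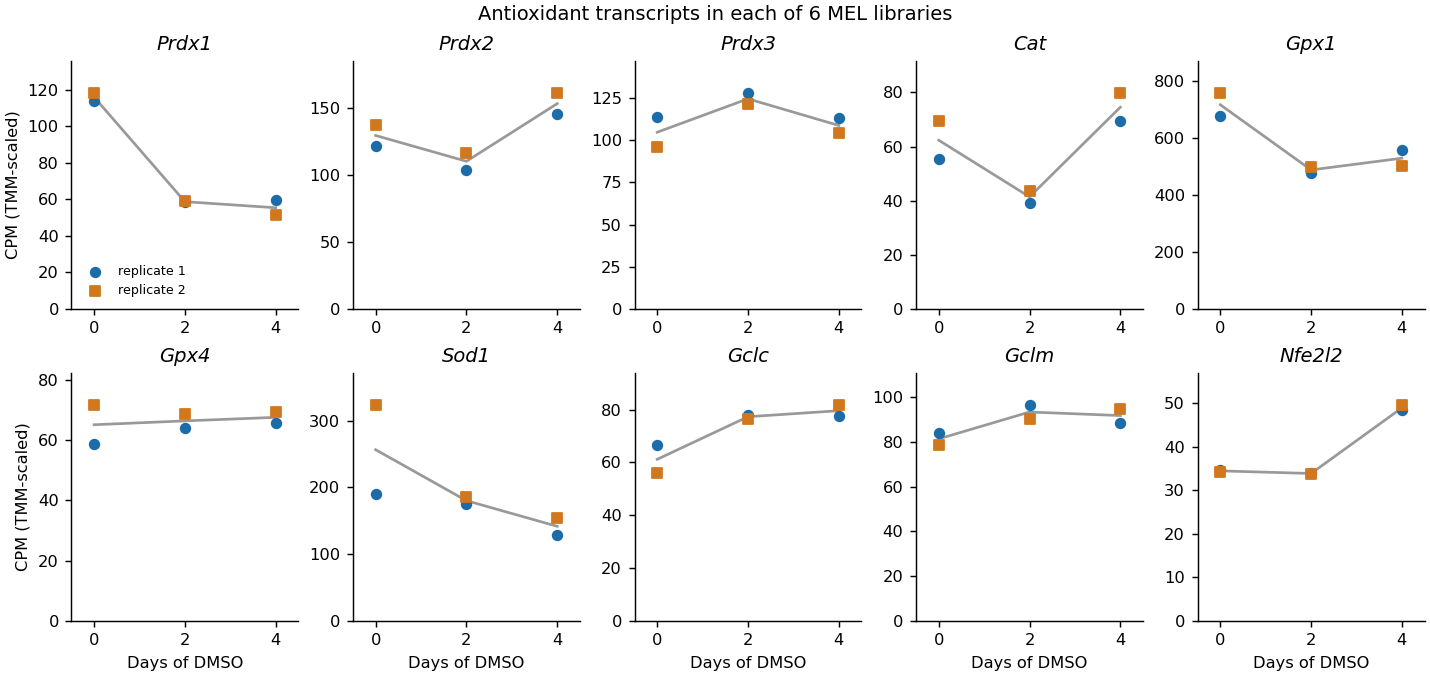
Level of each of the 10 transcripts (CPM on a linear axis from 0, TMM-scaled) against days of DMSO, with a point for each of the 2 replicates and a line through the means. Prdx1 drops between day 0 and day 2 and stays low, Cat and Prdx2 are lowest at day 2, Nfe2l2 is level until day 2 and higher at day 4, and the day 0 replicates of Sod1 lie 1.70-fold apart.

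Sod1 encodes the copper and zinc superoxide dismutase of the cytosol (NM_011434, chromosome 16 from 90220762 to 90226333, plus strand). It stood at 190 and 323 CPM in the day 0 libraries, 175 and 185 at day 2, and 128 and 155 at day 4. Every day 2 library was below both day 0 libraries and every day 4 library below both of day 2, but the lower day 0 library lay close to day 2. By day 4 Sod1 fell by 0.86 on the log2 scale (SE 0.20, edgeR adjusted p = 0.00276). The size of this fall depended on day 0, since it was -0.44 without the second day 0 replicate (edgeR adjusted p = 0.00394) and -1.20 without the first. The fall by day 2, -0.51 (edgeR adjusted p = 0.0452), was not called without the second day 0 replicate (-0.09, edgeR adjusted p = 0.548), without either day 2 replicate, without the first day 4 replicate, with total counts (-0.31, edgeR adjusted p = 0.175), with only the 2 days in the fit or with counts summed over transcripts of a gene. The second step was not called (-0.35, 95% interval -0.79 to 0.10, edgeR adjusted p = 0.215), but was without either day 0 replicate (edgeR adjusted p = 0.00936 and 0.00928), with only the 2 days in the fit and with no filter. Of the 31-base words of this transcript, 34.9% also occur in the processed pseudogene Gm8566, so the level of Sod1 is uncertain.

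Prdx1 fell early and stayed low. It encodes a cytosolic peroxiredoxin (NM_011034, chromosome 4 from 116685599 to 116700000, plus strand), and its libraries were at 114 and 118 CPM on day 0, 58.5 and 59.0 on day 2, and 59.4 and 51.4 on day 4. The day 0 libraries were above all others, and those of day 2 and day 4 overlapped. The first step was -0.98 on the log2 scale (SE 0.11, edgeR adjusted p = 1.82e-05) and the net change -1.07 (SE 0.11, edgeR adjusted p = 5.1e-06). Over the whole course Prdx1 thus fell by 52.3% in the fit. Between day 2 and day 4 the change was -0.09 (95% interval -0.32 to 0.15). Leaving out single libraries moved the net change between -1.18 and -0.97, and it was the one change among the 10 that also reached 1 on the log2 scale. Of its 31-base words, 17.8% occur in other genes.

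Prdx2, the peroxiredoxin abundant in red cells (NM_011563, chromosome 8 from 84969622 to 84974811, plus strand), followed another course. Its libraries stood at 121 and 137 CPM at day 0, 104 and 116 at day 2, and 145 and 161 at day 4. The day 4 libraries were above all others and the day 2 libraries below all others. The rise from day 2 to day 4 was 0.48 on the log2 scale (SE 0.12, edgeR adjusted p = 0.0109). It was not called without the first or the second day 2 replicate or the second day 4 replicate (0.39, 0.56 and 0.40). Its first step was -0.23 (95% interval -0.49 to 0.02, edgeR adjusted p = 0.101), and was called only without the first day 0 replicate (edgeR adjusted p = 0.0194). Its net change was 0.24 (95% interval -0.01 to 0.50, edgeR adjusted p = 0.0785). That net change was called with total counts (0.36, edgeR adjusted p = 0.0147) and without the second day 0 replicate (edgeR adjusted p = 0.0188). Exons of Junb and Rnaseh2a on the opposite strand overlap 11.5% of the exon bases of Prdx2, and the use of strand in counting is not given in the sources used here. The pseudogene Tdpx-ps1 shares 14.4% of its 31-base words.

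Prdx3 encodes the mitochondrial peroxiredoxin (NM_007452, chromosome 19 from 60864066 to 60874538, minus strand). Its libraries were at 114 and 95.9 CPM at day 0, 128 and 121 at day 2, and 113 and 104 at day 4. Those of day 2 were above all others, and those of day 0 and day 4 overlapped. Neither step was called (0.25 and -0.20, edgeR adjusted p = 0.0767 and 0.216), and the net change was 0.05 (95% interval -0.20 to 0.31). The first step was called with total counts (0.45, edgeR adjusted p = 0.00707) and without the first day 0 replicate (edgeR adjusted p = 0.0062).

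Catalase, the heme enzyme that splits hydrogen peroxide in peroxisomes and red cells, both fell and rose. Cat (NM_009804, chromosome 2 from 103453904 to 103485153, minus strand) was at 55.3 and 69.4 CPM at day 0, 39.2 and 43.6 at day 2, and 69.4 and 79.7 at day 4. The day 2 libraries were below all others. The lower day 4 library lay just above the higher day 0 library (69.44 and 69.39 CPM), so those days barely stood apart. It changed by -0.59 in the first step (SE 0.13, edgeR adjusted p = 0.00253) and by 0.85 in the second (SE 0.13, edgeR adjusted p = 0.00124). Both were called under every alternative other than a minimum log2 change of 1. The net change was 0.26 (95% interval -0.03 to 0.55, edgeR adjusted p = 0.0977), and was called with total counts (0.37, edgeR adjusted p = 0.0197) and without the second day 0 replicate (edgeR adjusted p = 0.00468).

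The 2 selenium-dependent glutathione peroxidases, whose selenocysteine codons are printed above, differed in course. Gpx1, which reduces hydrogen peroxide in the cytosol (NM_008160, chromosome 9 from 108339080 to 108340342, plus strand), stood at 675 and 755 CPM at day 0, 477 and 496 at day 2, and 556 and 499.8 at day 4. All libraries of day 2 and day 4 were below those of day 0. Gpx1 fell by 0.56 on the log2 scale by day 2 (SE 0.12, edgeR adjusted p = 0.00239). It was -0.44 by day 4 (SE 0.12, edgeR adjusted p = 0.00754), which was not called without the second day 4 replicate (-0.37, edgeR adjusted p = 0.0736). The step between day 2 and day 4 was 0.12 (95% interval -0.15 to 0.39).

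Gpx4, which reduces lipid peroxides in membranes (NM_001037741, chromosome 10 from 80047166 to 80056439, plus strand), was at 58.7 and 71.6 CPM at day 0, 64.2 and 68.7 at day 2, and 65.8 and 69.5 at day 4. The day 2 and day 4 libraries all lay between the 2 libraries of day 0. The log2 fold changes were 0.03, 0.03 and 0.05 for the first step, the second and the whole course, and the last had a 95% interval of -0.21 to 0.31. The transcript with the next highest count gave 0.03, 0.02 and 0.04. The pseudogene Gpx4-ps2 shares 66.4% of the 31-base words of Gpx4, so reads of the 2 may not be separate and the level is uncertain.

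Gclc and Gclm encode the catalytic and the modifier subunit of glutamate-cysteine ligase, which makes the first and rate-limiting step of glutathione synthesis. Gclc (NM_010295, chromosome 9 from 77754535 to 77794489, plus strand) was at 66.4 and 55.9 CPM at day 0, 78.1 and 76.5 at day 2, and 77.6 and 81.6 at day 4. Every day 2 and day 4 library was above those of day 0. Gclc rose by 0.34 on the log2 scale by day 2 (SE 0.11, edgeR adjusted p = 0.0205) and stood 0.38 higher by day 4 (SE 0.11, edgeR adjusted p = 0.00947). The first call was lost without the second day 0 replicate (0.21, edgeR adjusted p = 0.0863) and without either day 2 replicate, and the second without the second day 4 replicate (0.34, edgeR adjusted p = 0.0733).

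Gclm (NM_008129, chromosome 3 from 122245487 to 122267215, plus strand) was at 84.2 and 78.7 CPM at day 0, 96.5 and 90.5 at day 2, and 88.7 and 95.04 at day 4. These libraries too were above those of day 0 throughout. The log2 fold change of Gclm was 0.20 by day 2 (95% interval -0.03 to 0.42, edgeR adjusted p = 0.111) and 0.17 by day 4 (95% interval -0.05 to 0.40, edgeR adjusted p = 0.146), and both were called with total counts (0.40 and 0.29, edgeR adjusted p = 0.00626 and 0.0279). Exons of Gm17494 on the opposite strand and Gm6061 on the same strand overlap 4.71% and 3.88% of the exon bases of Gclm.

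Nfe2l2 was level at first and rose late. The NRF2 transcript (NM_010902, chromosome 2 from 75675513 to 75704663, minus strand) was at 34.6 and 34.2 CPM at day 0, 33.9 and 33.8 at day 2, and 48.3 and 49.5 at day 4. The day 4 libraries were well above the other four, which lay within 1 CPM of each other. The first step was -0.03 (95% interval -0.26 to 0.21). The second was 0.53 on the log2 scale (SE 0.10, edgeR adjusted p = 0.00392). Without either day 2 replicate it was not called, at 0.53 in both fits. Between day 0 and day 4 Nfe2l2 rose by 0.51 (SE 0.10, edgeR adjusted p = 0.00111), a call kept under every alternative other than a minimum log2 change of 1. The mRNA level does not measure the NRF2 protein, whose amount is set mainly by its degradation.

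**Figure D2:**
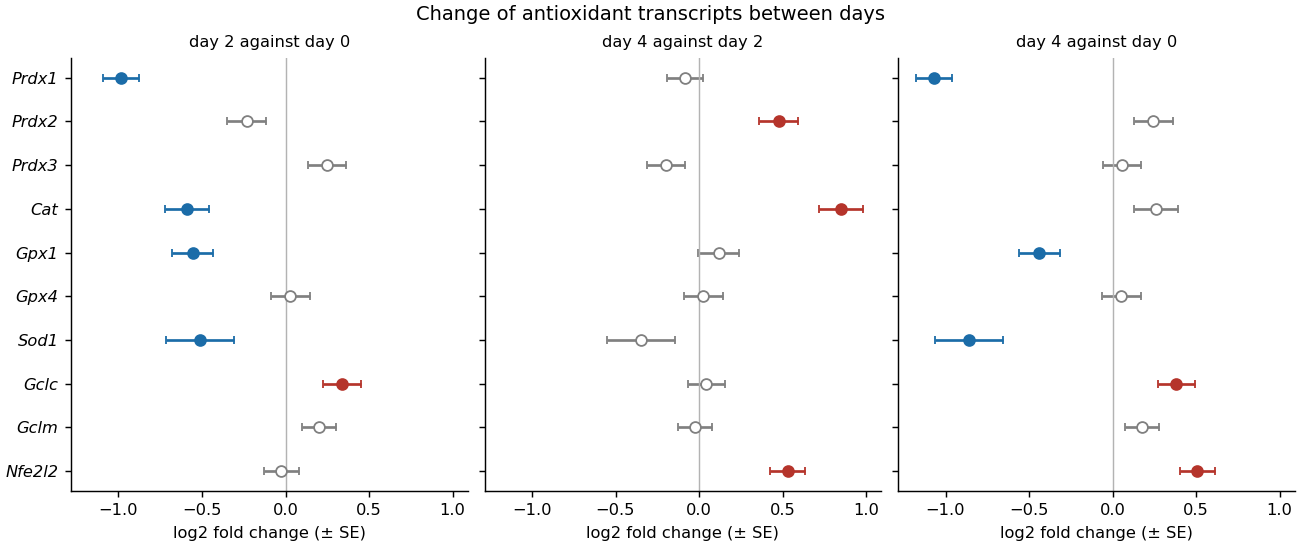
Log2 fold change of each of the 10 transcripts (points, with bars of 1 standard error) in the 3 comparisons, where filled points passed an edgeR adjusted p below 0.05 (blue lower, red higher) and open points did not. By day 2 the filled points are Prdx1, Cat, Gpx1, Sod1 and Gclc, and from day 2 to day 4 they are Prdx2, Cat and Nfe2l2, all to the right of 0.

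The change from day 2 to day 4 was also tested against that from day 0 to day 2, to ask whether a transcript's course bent at day 2. The 2 steps differed for 5 of the 10, Prdx1, Prdx2, Cat, Gpx1 and Nfe2l2, beside 30% of all tested genes. For each of the 5 the second step was the more positive. Cat bent most, with a difference of 1.44 on the log2 scale (SE 0.24, edgeR adjusted p = 0.00161), followed by Prdx1 with 0.90 (SE 0.19, edgeR adjusted p = 0.0057). Prdx2, Gpx1 and Nfe2l2 differed by 0.71, 0.67 and 0.56 (edgeR adjusted p = 0.0239, 0.0372 and 0.0407), and Nfe2l2 was not called with no filter on low counts (0.54, edgeR adjusted p = 0.0662). Both steps use the day 2 libraries. Without either of them day 2 had 1 library, and most of these calls were lost, that of Cat too without the first. Calls among all tested genes also became far fewer. Leaving out the first or the second day 4 replicate left 3 and 2 (Prdx1 and Cat in both, Prdx2 in the former), and leaving out the first day 0 replicate gave 8. With total counts the called ones were Prdx1 and Cat, more positive in the second step, and Prdx3, Gclc and Gclm, more negative, where all genes split into 868 and 3518 (1628 and 2091 with TMM).

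Per transcript length, Gpx1 was the highest of the 10 on every day, at 667 ± 52.7, 454 ± 12.4 and 492 ± 37.0 RPKM on days 0, 2 and 4 (SD, n = 2), at or above at least 99.7% of the 12229 tested genes with a length. Sod1 came next on every day, at 400.0 ± 147, 281 ± 10.6 and 221 ± 28.9 RPKM. Prdx2, Prdx3 and Gpx4 followed between 65.5 and 102 RPKM, and Prdx1, Cat, Gclc, Gclm and Nfe2l2 lay lower, from 13.7 to 50.6 RPKM. Neighbours in this order whose libraries overlapped were Prdx3 and Gpx4 at day 0, Gclm and Cat at day 2, and Prdx1 and Gclc at day 4. With the length of all exons of a gene in place of that of the transcript, Sod1 came to 45.3 RPKM at day 2, since its annotated exons cover 3970 bases against 641 for the transcript, so its place depends on the length used. The same holds for Prdx2, with 3050 exon bases against 1500 for the transcript, beside Prdx3 with 1478 for both.

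Ratios within a library need no scaling between libraries. Prdx2 over Prdx1 per length was 1.62 and 1.78 at day 0, 2.71 and 3.02 at day 2, and 3.74 and 4.78 at day 4, so that the libraries of the 3 days did not overlap. Gpx1 over Gpx4 was 10.7 and 9.79 at day 0, 6.90 and 6.70 at day 2, and 7.84 and 6.68 at day 4, highest at day 0 and overlapping afterwards. Gclc over Gclm was 1.29 and 1.16, then 1.32 and 1.38, then 1.43 and 1.402, and these did not overlap between days either. Cat over Gpx1 was 0.0336 and 0.0377 at day 0, 0.0337 and 0.0361 at day 2, and 0.0512 and 0.0654 at day 4. In that pair day 0 and day 2 overlapped and day 4 was above both. Another choice of length would multiply a ratio by the same factor on every day.

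**Figure D3:**
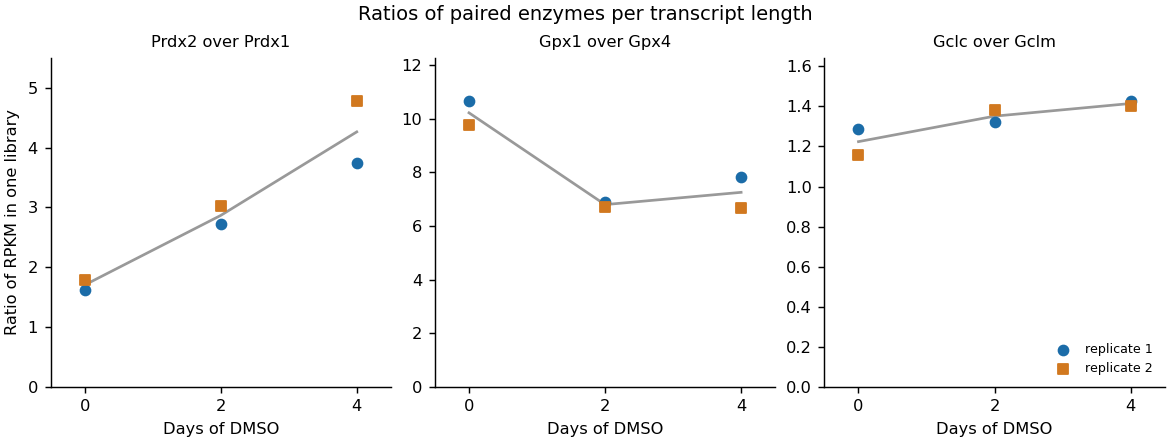
Ratio of the RPKM of 2 enzymes within each library (linear axes from 0) against days of DMSO, with a point for each replicate and a line through the means. Prdx2 over Prdx1 goes from a mean of 1.70 to 4.26, Gpx1 over Gpx4 drops from 10.2 to 6.80 by day 2, and Gclc over Gclm stays between 1.16 and 1.43.

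The genes around these enzymes were described with 6 lists of 77 genes, of which 70 were tested. By day 2, 55 of the 70 (78.6%) were called, 15 higher and 40 lower, which compares with 23 (32.9%) from day 2 to day 4, 11 higher and 12 lower, and 52 (74.3%) over the whole course, 16 higher and 36 lower. Among all tested genes the shares were 62.5% (31% higher, 31.5% lower), 30.3% and 71.8%, so the latter 2 shares were close to the background. For day 4 against day 2, fewer of the 70 were called without any single library of day 2 or day 4, and fewer of all tested genes too. By day 2 the same held, most so without a day 2 replicate. The median log2 fold change was -0.47, -0.02 and -0.39. With total counts the called genes split into 18 higher and 31 lower, 6 and 15, and 18 and 33, beside the shift of all genes to 5001 and 2881, 1228 and 2532, and 4916 and 4006. Srxn1, Prdx4, Ccs, G6pdx, Taldo1, Idh2, Oplah, Sqstm1, Slc48a1, Abcc1, Secisbp2, Pstk, Sephs1, Selenot and Selenof are named below after their values were seen. They make up some of the counts of 5 or fewer, while not every gene in such counts is named.

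Genes listed under NADPH supply, not all of which make NADPH themselves, were lower together. Of the 12 listed, Nnt had no transcript in the counts. All 11 tested genes of that list were called lower at day 2, with a median log2 fold change of -1.18, and 10 of 11 at day 4, with a median of -1.10, beside 31.5% and 36.4% of all tested genes called lower. With total counts it was 9 and 10 of 11, none higher, and none was higher by DESeq2 or at an unadjusted p below 0.05. Mthfd1, a folate enzyme that makes NADPH, was at 363 ± 8.82, 107 ± 6.64 and 55.0 ± 9.23 CPM on days 0, 2 and 4 (SD, n = 2), with a net log2 fold change of -2.72 (SE 0.14, edgeR adjusted p = 4.77e-08). Malic enzyme 2 (Me2) went from 158 ± 24.8 to 64.1 ± 2.57 and 33.1 ± 2.66 CPM, with -2.25 (edgeR adjusted p = 1.21e-07). G6pdx, the entry enzyme of the pentose phosphate pathway, was the gene of the list not called by day 4 (-0.26, edgeR adjusted p = 0.0825). It fell by day 2 (-0.62) and rose from day 2 to day 4 (0.36, edgeR adjusted p = 0.0474), as did Taldo1 (0.40, edgeR adjusted p = 0.021), while Idh2, Me2 and Mthfd1 fell in that step. With total counts none of the list was higher in that step.

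Partners of the peroxiredoxins and thioredoxins split. Of 12 tested, 4 were higher and 5 lower by day 2, and 4 higher and 7 lower by day 4. Among all tested genes 31% were higher and 31.5% lower by day 2, and 35.5% and 36.4% by day 4. Txnip, which binds and inhibits thioredoxin, rose from 407 ± 32.2 through 2527 ± 73.2 to 4739 ± 144 CPM over the 3 days (SD, n = 2), a net log2 fold change of 3.54 (SE 0.15, edgeR adjusted p = 1.85e-08). The sestrin Sesn3 rose from 15.6 ± 1.03 to 73.8 ± 8.95 and 114 ± 0.231 CPM (2.87, edgeR adjusted p = 1.88e-08). Mitochondrial thioredoxin Txn2 fell by 0.95 and cytosolic thioredoxin reductase Txnrd1 by 0.79 on the log2 scale by day 4 (edgeR adjusted p = 1.44e-05 and 4.28e-05). In the second step the genes called were Txnip, Sesn3 and Srxn1 (0.69), which repairs overoxidised peroxiredoxins, all higher, and the peroxiredoxin of the endoplasmic reticulum Prdx4 (-0.70), lower.

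The glutathione list held 24 genes, of which Gpx3, Gpx7, Gpx8, Mgst1 and Mgst2 were too low to test. Of the 19 others, 7 were higher and 9 lower by day 2, and 7 higher and 10 lower by day 4, with a median of -0.56. The shares of all tested genes were 31% higher and 31.5% lower by day 2, and 35.5% and 36.4% by day 4. The largest falls were those of Ggct, a gamma-glutamyl cyclotransferase that takes part in the breakdown of glutathione (10.8 ± 0.381 CPM at day 0 and 0.891 ± 0.0724 at day 4, log2 fold change -3.60, edgeR adjusted p = 7.63e-08), and Slc7a11, the cystine importer that feeds glutathione synthesis (42.9 ± 0.966 to 4.03 ± 2.76 CPM, -3.44, edgeR adjusted p = 3.6e-06). The transferases Mgst3 (2.42, edgeR adjusted p = 6.89e-06) and Gstt1 (2.15, edgeR adjusted p = 9.44e-07) rose most, from 3.55 ± 1.77 and 3.43 ± 0.599 CPM at day 0 to 18.7 ± 0.456 and 15.1 ± 0.808 at day 4. From day 2 to day 4, 2 were higher (Oplah and Gstt1) and 6 lower, beside 14% and 16.2% of all tested genes.

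Among the other superoxide dismutases and the copper delivery genes 4 were tested, and Sod3 was too low. Sod2, the manganese enzyme of mitochondria, stood at 117 ± 16.7, 65.6 ± 0.278 and 60.9 ± 4.997 CPM on days 0, 2 and 4 (SD, n = 2), with a net log2 fold change of -0.94 (edgeR adjusted p = 3.35e-05). The copper chaperone Atox1 (0.81, edgeR adjusted p = 0.00026) and the copper importer Slc31a1 (0.44, edgeR adjusted p = 0.00561) rose. Ccs, which loads copper into SOD1, was higher by day 2 (0.49, edgeR adjusted p = 0.00478) and was not called by day 4 (0.23, edgeR adjusted p = 0.118). With total counts 3 of the 4 were higher by day 4, Ccs among them, and none of the list was called from day 2 to day 4, where TMM called Slc31a1 higher.

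Genes that control NRF2, and other targets of it, were mostly lower at first. By day 2, 8 of 12 were lower and none higher, beside 31.5% of all tested genes lower and 31% higher. By day 4, 3 of the 12 (25%) were called, beside 71.8% of all tested genes. They were Hmox1, Rbx1 and Abcc1 (-0.30), all lower. The median of the list was then -0.09, which total counts turned to 0.03. DESeq2 and an unadjusted p below 0.05 also gave none higher at either day. Heme oxygenase 1 (Hmox1), a target of NRF2 that breaks down heme, dropped from 38.2 ± 6.93 to 5.51 ± 0.504 and then 5.33 ± 0.438 CPM over the 3 days (SD, n = 2), with a net log2 fold change of -2.84 (edgeR adjusted p = 1.17e-07). Rbx1, part of the ligase that marks NRF2 for degradation, changed by -0.45 (edgeR adjusted p = 0.00343). From day 2 to day 4, Sqstm1 (0.77), an autophagy receptor that binds KEAP1, and the heme transporter Slc48a1 (0.48) were higher (edgeR adjusted p = 0.000777 and 0.0088) and 10 were not called. Total counts at day 2 gave 1 higher and 5 lower.

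Genes of selenoprotein synthesis, with some further selenoproteins, were listed because Gpx1 and Gpx4 need the pathway. Of 12, 2 were higher (Pstk and Sepsecs) and 6 lower by day 2, and 3 higher (Pstk, Sepsecs and Selenow) and 5 lower (Sephs1, Sephs2, Selenot, Selenof and Selenoh) by day 4. All tested genes were 31% higher and 31.5% lower by day 2, and 35.5% and 36.4% by day 4. Sephs2, which makes the selenium donor, stood at 134 ± 1.71, 82.0 ± 1.76 and 52.1 ± 3.67 CPM on days 0, 2 and 4 (SD, n = 2), with -1.36 (edgeR adjusted p = 7.02e-07), and the nuclear selenoprotein Selenoh fell by 1.89 (edgeR adjusted p = 1.06e-06). Sepsecs, the last enzyme in making the selenocysteine tRNA, rose by 0.43 (edgeR adjusted p = 0.015) and Selenow by 0.47 (edgeR adjusted p = 0.0291). From day 2 to day 4, Secisbp2, which binds the selenocysteine insertion element of these mRNAs, was higher (0.38, edgeR adjusted p = 0.0224), and Sephs2 and Selenoh were lower. With total counts none was higher in that step. In whole cultures such as these, fewer cells of a kind and less RNA per cell cannot be told apart.

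**Figure D4:**
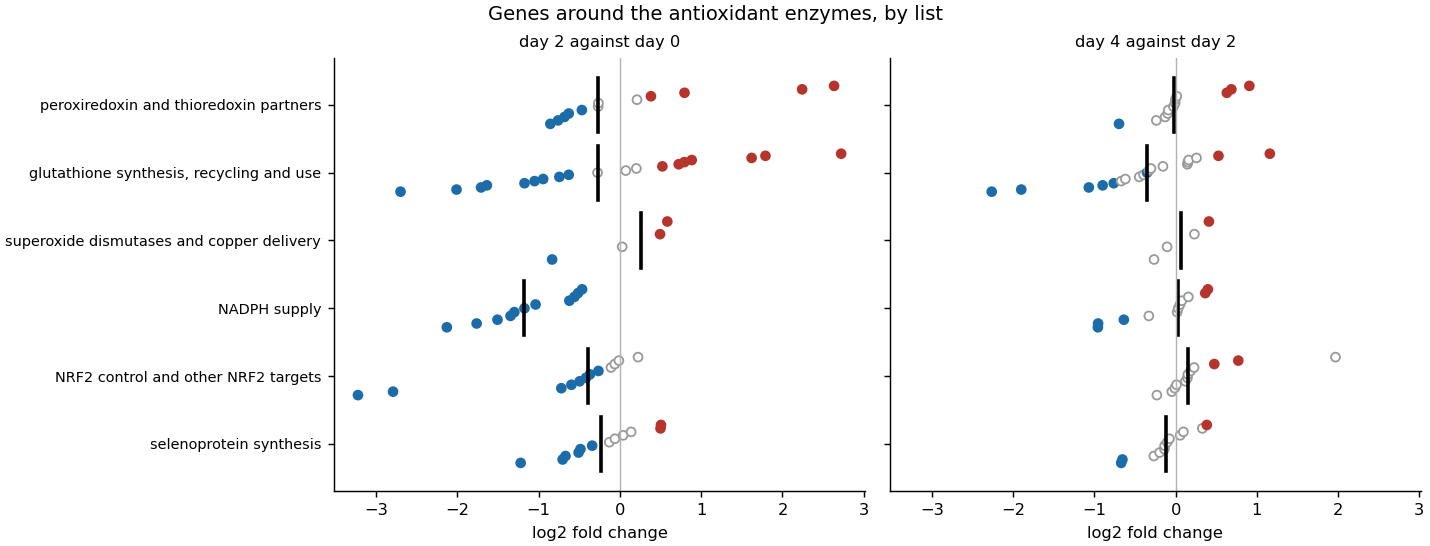
Log2 fold change of each tested gene in the 6 lists for day 2 against day 0 and day 4 against day 2, where filled points passed an edgeR adjusted p below 0.05 (blue lower, red higher), open points did not, and a black bar marks the median of a list. All 11 tested genes of the NADPH supply list lie left of 0 by day 2 with a median of -1.18, and from day 2 to day 4 their median is 0.03.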

How the data were processed

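Poly(A) mRNA of MEL cells was sequenced with a stranded TruSeq kit. The authors trimmed adapters with cutadapt, aligned reads to mm10 with TopHat, allowing up to 10 places per read, and deposited raw counts of reads on each RefSeq transcript, without normalization. They tested the counts with DESeq2. HTSeq is named in the submitters' processing notes without a role. The counting mode, strand setting and annotation release are not given in the sources used here. Reads on no feature (50.5% to 58.4% of a library) were left out, and ambiguous and multiply aligned reads are listed at 0, so a read with several places may have been counted at each.

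Days came from the sample labels. Gene symbols were taken from the GRCm38.p6 RefSeq table for 32199 of 32654 transcripts and from GENCODE for 187 more, and lengths from GENCODE for 31824. Counts of all 6 libraries entered 1 quasi-likelihood fit in edgeR 4.0.16 (R 4.3.3) with TMM factors and the filterByExpr filter (18351 transcripts). Benjamini-Hochberg adjustment was over those transcripts, a call is an adjusted p below 0.05, and intervals are 95% intervals from the fit. The fit was tested on simulated counts. The 10 genes, the lists and the alternatives were chosen with earlier results of these data known. Named are all 10, and from each list up to 2 genes with the largest rise and 2 with the largest fall by day 4 among called genes with a mean log2 CPM of at least 1, plus others that the text marks as added once their values were known. Alternatives tried were RLE factors, total counts, scaling without globin transcripts, DESeq2 1.42.0, no filter, a block for the replicate number, fits of 2 days alone, a minimum log2 change of 1, sums over transcripts, another transcript, exon lengths and leaving out each library.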

Additional observations from a re-analysis of the deposited data

Results flagged for a closer look

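For 5 of the 10 antioxidant transcripts the change from day 2 to day 4 differed from that between day 0 and day 2 by edgeR's test of the difference. The second step minus the first was 0.90 for Prdx1, 0.71 for Prdx2, 1.44 for Cat, 0.67 for Gpx1 and 0.56 for Nfe2l2 on the log2 scale (edgeR adjusted p = 0.0057, 0.0239, 0.00161, 0.0372 and 0.0407). Cat changed in opposite directions in the 2 steps and both were called. Prdx1 and Gpx1 fell in the first step only, and Prdx2 and Nfe2l2 rose in the second only. All of these values use the 2 day 2 libraries in both steps. Without either of them most of these calls were lost, and calls among all tested genes also became far fewer. Without the first of them the call for Cat was lost too, with steps of -0.51 and 0.77. The difference for Cat was 1.59 without the second.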

How the results depend on the processing

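With 2 libraries a day, calls for changes between days under about 0.6 on the log2 scale were often lost without 1 library. These losses are given beside each gene. The calls of Cat and Gpx1 by day 2 (-0.59 and -0.56) were kept. Calls for a difference between the steps were lost at larger values too, that of Cat (1.44) among them. Such a loss did not always go with a smaller change. Nfe2l2 from day 2 to day 4 was 0.53 with all libraries and 0.53 without either day 2 replicate. Sod1 by day 2 was -0.51 with all libraries and -0.09 without the second day 0 replicate. Required to reach a log2 fold change of at least 1, the antioxidant genes called fell from 5, 3 and 5 to 0, 0 and 1 (Prdx1) for day 2 against day 0, day 4 against day 2 and day 4 against day 0. Under the same limit the wider pathway genes fell from 55, 23 and 52 to 21, 4 and 23, and the antioxidant genes with different steps from 5 to 1 (Cat). Total counts called 8 in place of 5 for day 4 against day 0. Leaving out single libraries gave 3 to 7, 1 to 4 and 3 to 7 antioxidant genes, 43 to 59, 11 to 34 and 45 to 53 wider genes, and 0 to 8 genes with different steps. Without the first day 2 replicate, all genes called for day 4 against day 2 numbered 937 instead of 3749. The 1 antioxidant gene left in that comparison was the count without either day 2 replicate.

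Replicate numbers were not used to pair the libraries in the main fit. Deviations of same-numbered libraries correlated by 0.032, 0.045 and 0.079 across transcripts, which cannot settle whether the cultures were paired. With the replicate block the antioxidant genes called were 5, 3 and 7, with Prdx2 and Cat added as higher at day 4 than at day 0 (edgeR adjusted p = 0.0493 and 0.0415), the wider genes 56, 22 and 52, and the genes with different steps 5.

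Of the values for single antioxidant genes, 21 turned their sign, all of changes that were not called. For day 2 against day 0, Gpx4 was -0.0013 with RLE factors and -0.11 to 0.17 without single libraries, and Nfe2l2 was 0.17 with total counts. For day 4 against day 2, total counts gave Gpx4 -0.059 and Gclc -0.042, and without single libraries Gpx4 was -0.025 to 0.072, Gclm -0.079 to 0.022 and Prdx1 -0.19 to 0.012. For day 4 against day 0 without single libraries, Gpx4 was -0.089 to 0.19 and Prdx3 -0.075 to 0.175. For the difference between steps, Gpx4 was 0.035 with RLE factors, 0.031 with DESeq2 and -0.15 to 0.13 without single libraries, and Sod1 was -0.12 with total counts and -0.27 to 0.49 without single libraries. The cause of these shifts was not tested. RLE factors, scaling without globin transcripts and DESeq2 changed no antioxidant call. With exon lengths, 23 of 30 levels per length moved by more than the spread between replicates, and with total counts 11.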

Other observations

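Summed per length, the 10 antioxidant transcripts came to 1262 and 1559 RPKM in the day 0 libraries, 1033 and 1074 at day 2, and 1069 and 1069 at day 4, so that the day 0 libraries lay above all others. Gpx1 and Sod1 make up most of each sum. The 3 peroxiredoxins together were at 207 and 208 RPKM at day 0, 181 and 185 at day 2, and 199 and 200.1 at day 4. These levels use TMM scaling. Prdx3 over Prdx1 was 1.55 and 1.26 at day 0, 3.39 and 3.20 at day 2, and 2.96 and 3.15 at day 4. No test was run on these sums and ratios.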
